A study of Mus musculus with 12 samples.

Results

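Carriers of the solute carrier (Slc) families that move sugars, amino acids, peptides, metals, vitamins and ions across the absorptive cells of the intestine were followed through a set of arrays of mouse intestinal epithelium. The genes were chosen by name, 35 in all, and each was read from the probe set that named that gene and no other. Of the 35 genes, 34 were measured, each by 1 probe set, among 19938 named genes. Slc19a3, a thiamine carrier, had no probe set of its own name and is not analysed here.

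The tissue was epithelium that had been laser-dissected from sections of intestinal tumors, or from beside them, in male mice. All animals were on a C57BL6/J background with the APCmin/+ allele, which truncates a copy of Apc and gives intestinal adenomas, and all were harvested at 25 weeks or at a weight-loss endpoint. KO stands for FSPCre-PPARB -/-, in which Cre is driven by the fibroblast-specific protein promoter and removes PPARB (the gene Ppard, a lipid-sensing nuclear receptor) in cells that use this promoter. Floxed stands for PPARB flox/flox littermates. The labels gave 3 KO and 3 floxed arrays of tumor epithelium and 2 KO and 2 floxed arrays of adjacent epithelium. In 2 further adjacent arrays, called conflict arrays 1 and 2, the title and the genotype field contradict each other. Among the main fits they were used only where tissues were set against each other over all 12 arrays. They also enter the descriptions by array, the search for outlying arrays and the alternative fits that read their labels either way. No label ties an array to an animal, so p-values measure the spread between these arrays, which may be technical or shared within a mouse.

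Absorptive enterocytes take up sugars and amino acids through carriers in the brush border, many of them driven by sodium or protons, and release them to the blood through other carriers in the basolateral membrane. These carriers are switched on as cells leave the crypt and mature on the villus, and their levels also differ along the length of the gut. Tumors of APCmin/+ mice arise when the remaining Apc copy is lost, which turns on Wnt target genes such as Lgr5, Notum and Axin2.

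Several arrays stood apart before any carrier was considered. In 4 arrays, floxed tumor arrays 1 and 2 and both floxed adjacent arrays, the log2 values within an array had an SD of 1.04 to 1.09, against 1.49 to 1.57 in the other 8, and their correlation with any other array was 0.496 to 0.64. These are called weak-signal arrays below, and both floxed adjacent arrays are among them. Between the 5 KO arrays the correlation was 0.947 to 0.973. Conflict array 2, floxed by its title and KO by its genotype field, correlated with the KO arrays at 0.956 to 0.973. Conflict array 1, KO by its title and floxed by its genotype field, correlated with them at 0.822 to 0.852, and with floxed tumor array 3 at 0.9. These correlations assign neither array to a genotype. Ppard itself measured 6.06, 6.07 and 6.5 in KO tumor, 5.76 and 5.51 in KO adjacent, 4.95, 4.48 and 5.79 in floxed tumor, 5.09 and 4.61 in floxed adjacent, and 5.76 and 6.13 in the conflict arrays. Ppard was thus not lower in the KO arrays of this epithelium, the cells the Cre promoter is not named for, and the place of the probe set relative to the floxed part was not known here.

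Tissue labels were compared with marker genes. In KO arrays labelled tumor, 15 of 17 crypt and Wnt genes lay below the KO arrays labelled adjacent, with a median difference of −0.74 on the log2 scale, and 23 of 23 enterocyte markers lay above, with a median of 1.11. In a fit on the 5 KO arrays alone, 8 crypt and Wnt genes passed as lower, among them Notum by −1.58 and Lgr5 by −1.28. The share of all genes that passed as lower in that fit was 1.29%. As higher, 7 enterocyte markers passed, against 0.557% of all genes. Wnt target genes thus went against the labels in the KO arrays, and tissues are therefore written throughout as the arrays are labelled. Mean enterocyte-marker levels were 7.33 to 7.77 in KO tumor arrays, 5.93 and 6.72 in KO adjacent arrays, 5.36 to 8.05 in floxed tumor arrays and 4.67 and 5.52 in floxed adjacent arrays. The mean of the 34 carriers was 5.83, 6.15 and 6.13 in KO tumor arrays, 5.41 and 5.03 in KO adjacent arrays, 4.97, 4.65 and 6.01 in floxed tumor arrays, 4.78 and 4.46 in floxed adjacent arrays, and 4.64 and 5.64 in the conflict arrays. Carriers and enterocyte markers were thus high in the same arrays, namely the KO tumor arrays and floxed tumor array 3. In bulk tissue, fewer enterocytes and less RNA per enterocyte cannot be told apart, and the part of either in the results below was not tested.

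**Figure D1:**
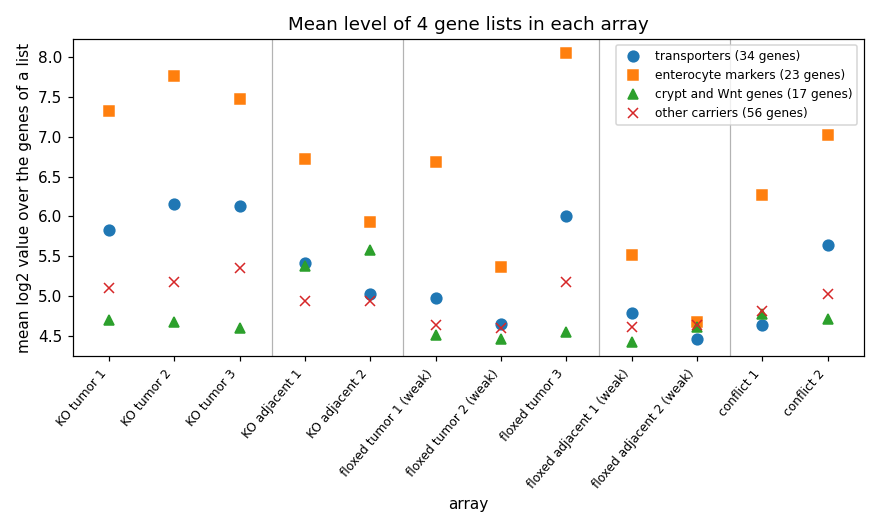
Mean log2 value of 4 gene lists (vertical axis) in each of the 12 arrays (horizontal axis), with carriers as circles, enterocyte markers as squares, crypt and Wnt genes as triangles and other Slc carriers as crosses. Carriers and enterocyte markers were highest in the KO tumor arrays and floxed tumor array 3, while crypt and Wnt genes were highest in the KO adjacent arrays, at 5.37 and 5.58.

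Across all 12 arrays, the extremes of the carriers were counted by array. No such count was made over all genes, here or for the pairs of arrays below. The counts are therefore not read as particular to the carriers. KO tumor array 2 held the highest value of 11 of the 34 carriers, floxed tumor array 3 of 8 and KO tumor array 3 of 7. Floxed adjacent array 2 held the lowest value of 9 and conflict array 1 of 7. Markers of other tissues were high in some of these arrays, and their part in the carrier levels was not tested. The mean of 6 genes of Brunner's glands and stomach was 10.43 in conflict array 1. It was 7.05 in KO tumor array 3, 6.86 in floxed tumor array 3 and 4.42 to 6.18 in the other 9. The mean of 5 genes of the exocrine pancreas was 8.13 in floxed tumor array 3, 7.95 in conflict array 1 and 7.09 in KO tumor array 2, and 4.56 to 5.43 in the other 9. Within a group the carriers also differed. KO adjacent array 1 was above KO adjacent array 2 for 27 of 34 carriers, with a median difference of 0.44. KO tumor array 2 was above KO tumor array 1 for 31, with a median of 0.34. Floxed tumor array 3 was above floxed tumor array 1 for 29, with a median of 1.06. The conflict arrays share a tissue label but, by either reading, not a genotype. Conflict array 2 was above conflict array 1 for 31 carriers, with a median of 0.91. The widest gaps within a group were thus those of floxed tumor array 3, which was also above floxed tumor array 2 by a median of 1.25. Floxed tumor arrays 1 and 2 are of weak signal and array 3 is not.

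**Figure D2:**
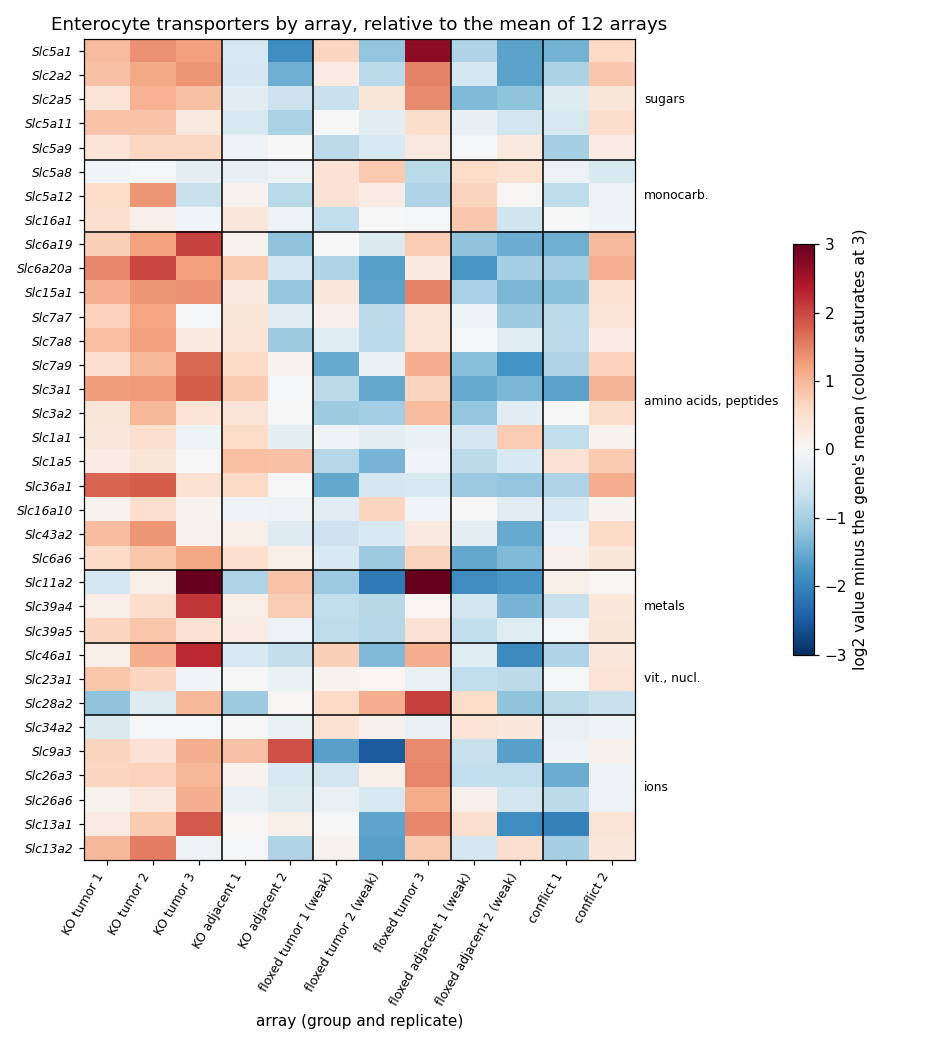
Log2 value of each of 34 carriers minus its own mean over 12 arrays, with carriers in rows by role and arrays in columns by group. Red is above and blue below a carrier's mean. The 3 KO tumor columns and floxed tumor array 3 are mostly red, and the floxed adjacent columns and conflict array 1 are mostly blue.

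The sequences just upstream of the carriers' starts are shown for 5 genes whose values recur below: Slc5a1 and Slc2a2, with the widest tissue difference in KO arrays, Slc3a1 and Slc36a1, which were high in KO tumor arrays, and Slc26a3, a chloride carrier. They are the 250 bases before the start in RefSeq on GRCm38.p6, all on the plus strand, at chr5:33103969-33104218 (Slc5a1), chr3:28697653-28697902 (Slc2a2), chr17:85028097-85028346 (Slc3a1), chr11:55204090-55204339 (Slc36a1) and chr12:31437969-31438218 (Slc26a3). Capitals mark the letters searched for on both strands for factors of gut epithelium. GTTAAT is named here for HNF1 and CAAAGTCCA for HNF4. The letters searched for CDX were TTTATNG. For GATA factors they were AGATAA.
Slc5a1: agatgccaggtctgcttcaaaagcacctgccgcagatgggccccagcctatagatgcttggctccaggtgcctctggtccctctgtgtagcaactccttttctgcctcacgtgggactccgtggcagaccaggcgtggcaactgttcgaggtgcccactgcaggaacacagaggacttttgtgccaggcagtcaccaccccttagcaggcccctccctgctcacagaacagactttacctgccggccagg
Slc2a2: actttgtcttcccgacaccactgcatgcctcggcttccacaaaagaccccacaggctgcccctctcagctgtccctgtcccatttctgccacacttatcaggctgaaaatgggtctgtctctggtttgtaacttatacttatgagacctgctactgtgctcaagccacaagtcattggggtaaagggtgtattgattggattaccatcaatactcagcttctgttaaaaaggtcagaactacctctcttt
Slc3a1: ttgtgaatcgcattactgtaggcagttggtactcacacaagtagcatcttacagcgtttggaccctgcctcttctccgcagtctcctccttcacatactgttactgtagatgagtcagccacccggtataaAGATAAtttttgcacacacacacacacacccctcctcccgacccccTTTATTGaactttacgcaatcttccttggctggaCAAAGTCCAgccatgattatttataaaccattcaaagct
Slc36a1: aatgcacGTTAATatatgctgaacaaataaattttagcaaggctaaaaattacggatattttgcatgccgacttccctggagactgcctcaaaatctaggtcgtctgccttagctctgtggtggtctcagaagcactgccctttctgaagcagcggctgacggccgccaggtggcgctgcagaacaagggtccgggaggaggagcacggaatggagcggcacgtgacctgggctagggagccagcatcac
Slc26a3: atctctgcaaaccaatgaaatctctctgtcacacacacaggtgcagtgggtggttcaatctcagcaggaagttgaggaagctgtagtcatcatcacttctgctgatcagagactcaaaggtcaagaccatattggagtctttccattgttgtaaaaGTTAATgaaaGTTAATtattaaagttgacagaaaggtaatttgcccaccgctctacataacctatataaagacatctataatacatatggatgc
The HNF1 letters occurred 2 times in Slc26a3 and once in Slc36a1, the HNF4, CDX and GATA letters each stood once in Slc3a1, and none of them is in the window of Slc5a1 or Slc2a2. Of 27 carriers with a RefSeq window, 6 (22.22%) held the HNF1 letters, against 7.49% of all genes with one. The HNF4 letters were in 1 carrier (3.7%) against 0.45% of genes, the CDX letters in 3 (11.11%) against 11.3%, and the GATA letters in 4 (14.81%) against 11.43%. The GATA match of Slc3a1 shares its first base with a TATAAA match. Also searched were TATAAA, held by 3 carriers (11.11%) against 14.33% of genes, and GGGCGG, named for SP factors, held by 14 (51.85%) against 35.36%. These are matches of letters and carry no statement on binding.

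The first comparison asked how carriers differed between tumor and adjacent epithelium of KO mice, whose 5 arrays all had strong signal. Carriers were higher in the arrays labelled tumor for 31 of 34 genes, with a median difference of 0.78 on the log2 scale, against 0.04 for all genes. Sugar carriers led, with a median of 1.38, and the largest single difference was that of Slc5a1, a 5.13-fold higher level. In the fit of all 10 arrays, limma called 0 carriers and 0.0201% of all genes. In 16 carriers every tumor array lay above both adjacent arrays (47.1%, against 17.9% of all genes), and in 1, Slc1a5, every tumor array lay below (14.1% of all genes). Fitted on the 5 KO arrays alone, 4 carriers passed as higher and 0 as lower, all 4 of them sugar carriers, against 1.85% of genes in either direction, 0.557% higher and 1.29% lower. Without KO tumor array 2 no carrier passed in that fit, with 0.281% of genes, and without KO tumor array 3 there were 9, with 3.17% of genes. Without KO adjacent array 2, which leaves 1 adjacent array that is assumed to vary like the tumor arrays, 0 carriers and 0.0502% of genes passed.

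**Figure D3:**
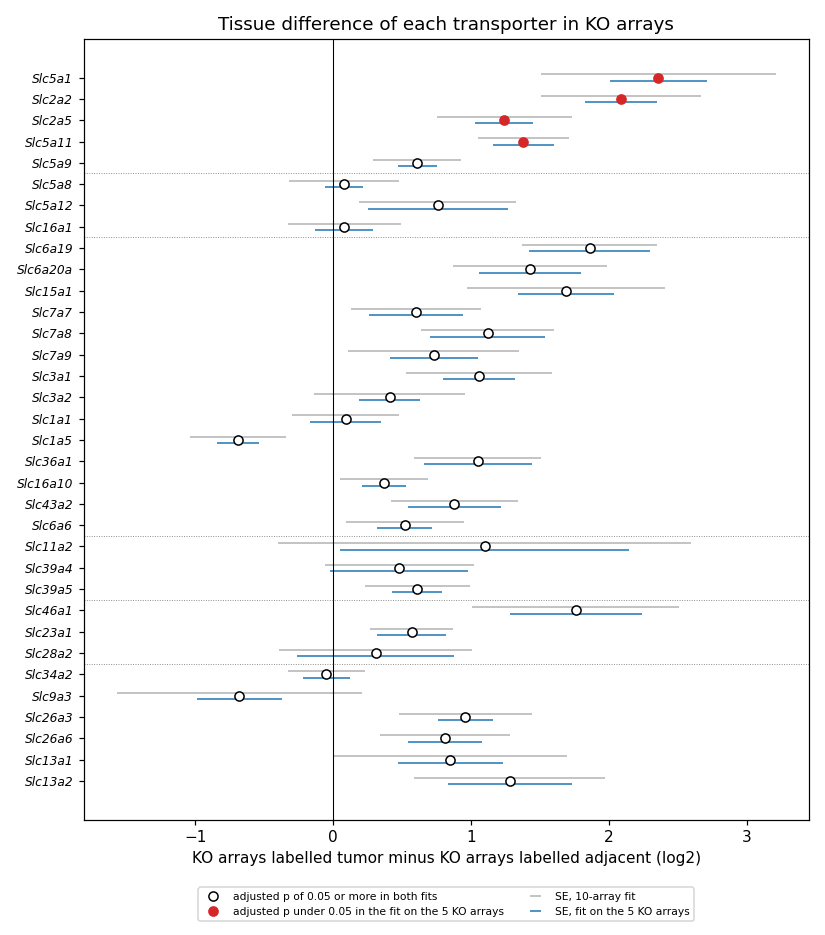
Difference between KO arrays labelled tumor (n = 3) and KO arrays labelled adjacent (n = 2) in log2 units (horizontal axis) for each carrier, ordered by role. Bars are standard errors of the 10-array fit (grey) and of the fit on 5 KO arrays (blue), and red points passed in the latter. The 4 red points are Slc5a1, Slc2a2, Slc2a5 and Slc5a11, and only Slc1a5, Slc9a3 and Slc34a2 lie left of 0.

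Slc5a1 encodes the sodium-coupled carrier that takes up glucose and galactose from the lumen. Slc5a1 measured 7.62, 8.03 and 7.9 in KO tumor, 6.18 and 4.79 in KO adjacent, 7.3, 5.49 and 9.35 in floxed tumor, 5.75 and 5.05 in floxed adjacent, and 5.25 and 7.25 in the conflict arrays. Every KO tumor array lay above every KO adjacent array, and the highest value of all was in floxed tumor array 3. Its KO group means were 7.85 ± 0.21 (SD, n = 3) and 5.49 ± 0.99 (SD, n = 2). In KO arrays the difference of 2.36 had a standard error of 0.85 in the 10-array fit and an adjusted p of 1, and a standard error of 0.35 and an adjusted p of 0.0227 on the KO arrays alone. Slc2a2 encodes the basolateral exit route of glucose, galactose and fructose. Slc2a2 measured 6.93, 7.18 and 7.36 in KO tumor, 5.54 and 4.59 in KO adjacent, 6.29, 5.23 and 7.54 in floxed tumor, 5.52 and 4.44 in floxed adjacent, and 5.09 and 6.85 in the conflict arrays. The order of the arrays was like that of Slc5a1, with KO tumor arrays and floxed tumor array 3 high. The tissue difference in KO arrays was 2.09, with a standard error of 0.26 and an adjusted p of 0.0143 on KO arrays alone and an adjusted p of 0.947 in the 10-array fit.

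Fructose uptake depends on Slc2a5 in the brush border. Slc2a5 measured 5.59, 6.25 and 6.08 in KO tumor, 4.89 and 4.58 in KO adjacent, 4.53, 5.57 and 6.62 in floxed tumor, 3.88 and 4.0 in floxed adjacent, and 4.81 and 5.56 in the conflict arrays. Its KO tumor arrays lay above both KO adjacent arrays, and floxed tumor array 3 was again highest. The KO difference was 1.24, with an adjusted p of 0.0319 on KO arrays alone and 1 in the 10-array fit. Slc5a11, a sodium-coupled carrier of myo-inositol, measured 6.0, 6.01 and 5.45 in KO tumor, 4.67 and 4.19 in KO adjacent, 5.14, 4.82 and 5.67 in floxed tumor, 4.89 and 4.59 in floxed adjacent, and 4.67 and 5.67 in the conflict arrays. KO tumor arrays lay above KO adjacent arrays without overlap, and the difference of 1.38 had an adjusted p of 0.0277 on KO arrays alone and 0.583 in the 10-array fit. Over 16 alternatives to the 10-array fit, adjusted p ranged from 0.00115 to 1 for Slc5a1, from 3.1e-04 to 1 for Slc2a2, from 0.00262 to 1 for Slc2a5 and from 2.9e-04 to 1 for Slc5a11, and each passed in 3 of them. These were array weights, the KO arrays alone and the fit without weak-signal arrays. The last equals the fit on KO arrays alone, since the single floxed array left in it adds no spread. Slc5a9, a sodium-coupled carrier of mannose and related sugars, was the fifth member of the group. Its KO tumor arrays, at 5.24 to 5.48, lay above the adjacent arrays, at 4.73 and 4.85, with a difference of 0.61 and an adjusted p of 0.0818 on KO arrays alone. Khk, which phosphorylates fructose inside the enterocyte and was listed as a partner of these carriers, also passed as higher on KO arrays alone, by 1.05 with an adjusted p of 0.0148.

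Carriers of amino acids and peptides made up 14 of the 34 genes. In KO arrays 13 of the 14 were higher in arrays labelled tumor, with a median difference of 0.80, and none passed. Slc6a19, the main brush-border carrier of neutral amino acids, measured 6.44, 6.94 and 7.75 in KO tumor, 5.84 and 4.53 in KO adjacent, 5.73, 5.29 and 6.5 in floxed tumor, 4.51 and 4.25 in floxed adjacent, and 4.26 and 6.7 in the conflict arrays. No KO tumor array overlapped a KO adjacent array, and the difference of 1.86 had an adjusted p of 0.0841 on KO arrays alone. Slc15a1, which takes up di- and tripeptides with protons, measured 7.04, 7.28 and 7.34 in KO tumor, 6.26 and 4.81 in KO adjacent, 6.3, 4.36 and 7.46 in floxed tumor, 4.99 and 4.59 in floxed adjacent, and 4.7 and 6.43 in the conflict arrays. KO tumor arrays agreed closely, while the KO adjacent arrays and the floxed tumor arrays were far apart, and the KO difference of 1.69 had an adjusted p of 0.0576 on KO arrays alone. Slc6a20a, a carrier of proline and other imino acids, measured 7.99, 8.54 and 7.78 in KO tumor, 7.33 and 6.02 in KO adjacent, 5.65, 4.89 and 6.84 in floxed tumor, 4.81 and 5.54 in floxed adjacent, and 5.56 and 7.62 in the conflict arrays. It was highest in the KO tumor arrays, all above both KO adjacent arrays, by 1.43 with an adjusted p of 0.108 on KO arrays alone.

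The pairs of heavy and light chains gave smaller tissue differences than Slc6a19, Slc15a1 and Slc6a20a. Slc3a1 is the heavy chain that carries Slc7a9 to the brush border, where the pair takes up cystine and basic amino acids. Slc3a1 measured 6.74, 6.78 and 7.3 in KO tumor, 6.28 and 5.47 in KO adjacent, 4.7, 3.97 and 6.16 in floxed tumor, 3.98 and 4.13 in floxed adjacent, and 3.9 and 6.52 in the conflict arrays. Its KO tumor arrays lay above the KO adjacent arrays by 1.06, with an adjusted p of 0.0972 on KO arrays alone, and 4 arrays, floxed tumor array 2, both floxed adjacent arrays and conflict array 1, stayed near 4. Slc7a9 ranged from 5.90 to 7.12 in KO tumor and measured 5.98 and 5.51 in KO adjacent, so these arrays overlapped. Slc3a2 is the heavy chain of the basolateral exchangers. Slc3a2 measured 5.75, 6.37 and 5.79 in KO tumor, 5.76 and 5.36 in KO adjacent, 4.31, 4.36 and 6.29 in floxed tumor, 4.22 and 5.04 in floxed adjacent, and 5.36 and 5.9 in the conflict arrays. Tumor and adjacent KO arrays overlapped, and the difference of 0.41 did not pass. Slc7a8, a light chain of Slc3a2 that exchanges neutral amino acids, measured 5.75, 6.08 and 5.14 in KO tumor, 5.28 and 3.79 in KO adjacent, 4.49, 4.06 and 5.28 in floxed tumor, 4.79 and 4.49 in floxed adjacent, and 4.07 and 5.08 in the conflict arrays. KO adjacent arrays 1 and 2 were 5.28 and 3.79, which left the difference of 1.12 short of the threshold, with an adjusted p of 0.273 on KO arrays alone.

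Slc1a5, an exchanger of glutamine and other neutral amino acids that is used by dividing cells, went against the rest of its group. Slc1a5 measured 5.6, 5.75 and 5.37 in KO tumor, 6.27 and 6.25 in KO adjacent, 4.52, 3.99 and 5.29 in floxed tumor, 4.59 and 4.92 in floxed adjacent, and 5.81 and 6.17 in the conflict arrays. Both KO adjacent arrays lay above all KO tumor arrays, and the weak-signal arrays were lowest. The KO difference was −0.69 with a standard error of 0.15 and an adjusted p of 0.0681 on KO arrays alone, and −0.69 with an adjusted p of 1 in the 10-array fit. Among other carriers in this list of roles, Slc36a1 differed by 1.05, Slc43a2 by 0.88, Slc7a7 by 0.60, Slc6a6 by 0.52, Slc16a10 by 0.37 and Slc1a1 by 0.09, and none of these passed in either fit.

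Among carriers of monocarboxylates, Slc5a8 and Slc16a1 hardly differed between KO tissues, each by 0.08. They move lactate and short-chain fatty acids with sodium and with protons. Slc5a12, a related sodium-coupled lactate carrier, measured 4.71, 5.47 and 3.49 in KO tumor and 4.25 and 3.35 in KO adjacent, a difference of 0.76 that did not pass. KO tumor array 3 was the lowest of its group for all 3 genes.

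Slc11a2, the proton-coupled importer of ferrous iron and other divalent metals, differed more between single arrays than between groups. Slc11a2 measured 5.91, 6.65 and 9.94 in KO tumor, 5.52 and 7.29 in KO adjacent, 5.35, 4.32 and 9.94 in floxed tumor, 4.59 and 4.7 in floxed adjacent, and 6.62 and 6.48 in the conflict arrays. KO tumor array 3 and floxed tumor array 3 stood at 9.94, and the other 10 arrays lay at or below 7.29. The KO tissue difference of 1.10 did not pass, and it turned to −0.12 without KO tumor array 3. Cybrd1, the ferric reductase of the duodenal brush border, was listed as a partner and measured 4.22, 4.48 and 10.77 in KO tumor, 4.97 and 7.57 in KO adjacent, 7.5, 6.85 and 10.61 in floxed tumor, 6.2 and 4.76 in floxed adjacent, and 8.84 and 5.2 in the conflict arrays. Slc40a1, the iron exporter ferroportin of the basolateral membrane, measured 3.98, 4.84 and 8.96 in KO tumor, 4.3 and 6.19 in KO adjacent, 5.11, 6.16 and 8.89 in floxed tumor, 5.18 and 4.57 in floxed adjacent, and 5.01 and 5.5 in the conflict arrays. Both genes were highest in the same 2 arrays as Slc11a2, and the same arrays held the highest Slc30a10, a manganese exporter, at 8.16 and 8.82, and the highest Slc39a14, a metal importer, at 7.10 and 7.30. A list of 9 measured genes of the proximal intestine had a mean level of 7.67 in KO tumor array 3 and 7.05 in floxed tumor array 3. Its mean was 6.09 and 6.71 in the other KO tumor arrays, 5.88 and 6.04 in KO adjacent arrays, 5.82 and 5.23 in the other floxed tumor arrays, 5.06 and 4.99 in floxed adjacent arrays, and 6.04 and 6.26 in the conflict arrays. Cybrd1 and Slc40a1 belong to this list, so its mean is not independent of their values. Among its other genes, Fabp1, Lct and Cyp3a25 were highest in KO tumor array 2, at 11.55, 8.04 and 9.59. Gata4 was highest in conflict array 1, at 7.23, Dcxr in KO adjacent array 2, at 6.05, and Onecut2 in floxed tumor array 3, at 7.09. Ces1d reached 4.68 in both KO tumor array 3 and floxed adjacent array 2. Genes of Brunner's glands and stomach averaged 7.05 in KO tumor array 3 and 6.86 in floxed tumor array 3, below conflict array 1 only. The labels do not say which stretch of the gut an array came from. The part of gut position or of these other tissues in the values was not tested.

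Zinc carriers were 2 of the metal group. Slc39a4, the brush-border zinc importer, measured 5.68, 6.02 and 7.64 in KO tumor, 5.7 and 6.23 in KO adjacent, 4.76, 4.66 and 5.56 in floxed tumor, 4.93 and 4.09 in floxed adjacent, and 4.82 and 5.82 in the conflict arrays. It too was highest in KO tumor array 3, and the KO tissue difference of 0.48 did not pass. Slc39a5, a zinc importer of the basolateral side, was 6.47 to 6.85 in KO tumor and 6.26 and 5.84 in KO adjacent, without overlap, and its difference of 0.61 had an adjusted p of 0.161 on KO arrays alone. Conflict array 2 stood at 6.40 and conflict array 1 at 5.98 for this gene.

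**Figure D4:**
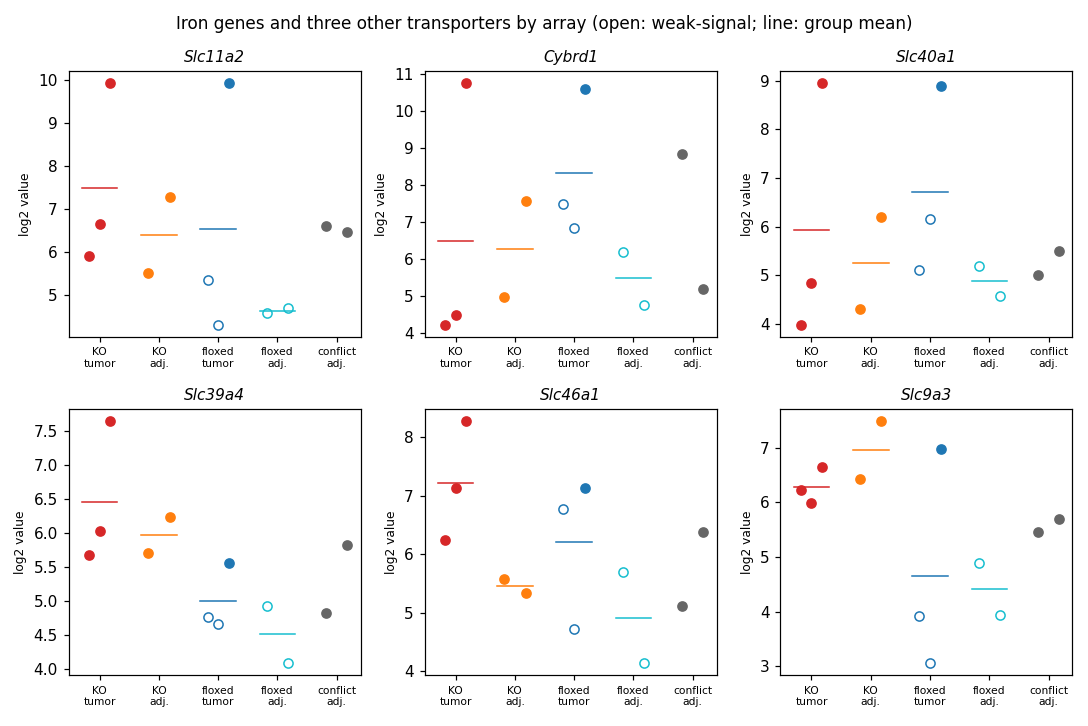
Log2 values (vertical axis) of Slc11a2, its partners Cybrd1 and Slc40a1, and the carriers Slc39a4, Slc46a1 and Slc9a3 in each array, by group (horizontal axis). Open circles are weak-signal arrays and lines are group means, drawn for all groups but the conflict arrays. A single array of KO tumor and one of floxed tumor stand at 9.94 for Slc11a2, and the same arrays stand at 10.77 and 10.61 for Cybrd1.

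Of the vitamin and nucleoside carriers, Slc46a1, the proton-coupled folate carrier of the proximal gut, measured 6.24, 7.14 and 8.28 in KO tumor, 5.58 and 5.34 in KO adjacent, 6.77, 4.72 and 7.14 in floxed tumor, 5.69 and 4.14 in floxed adjacent, and 5.12 and 6.39 in the conflict arrays. KO tumor arrays all lay above KO adjacent arrays, and the difference of 1.76 had an adjusted p of 0.131 on KO arrays alone. Slc23a1, which takes up vitamin C with sodium, differed by 0.57 between KO tissues, with overlap, and did not pass. Slc28a2, a sodium-coupled carrier of purine nucleosides, measured 3.47, 4.28 and 5.66 in KO tumor, 3.61 and 4.71 in KO adjacent, 5.27, 5.77 and 6.72 in floxed tumor, 5.22 and 3.46 in floxed adjacent, and 3.85 and 4.01 in the conflict arrays. The highest value was in floxed tumor array 3, both tissues of KO arrays overlapped, and the KO tissue difference of 0.31 did not pass.

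Ion carriers were divided. Slc26a3, the chloride and bicarbonate exchanger shown above with a pair of HNF1 matches, measured 5.65, 5.69 and 6.01 in KO tumor, 5.11 and 4.53 in KO adjacent, 4.46, 5.19 and 6.47 in floxed tumor, 4.28 and 4.28 in floxed adjacent, and 3.53 and 4.91 in the conflict arrays. KO tumor arrays lay above KO adjacent arrays by 0.96, with an adjusted p of 0.0575 on KO arrays alone. Slc13a2, a sodium-coupled carrier of citrate and other dicarboxylates, measured 5.67, 6.21 and 4.51 in KO tumor, 4.6 and 3.76 in KO adjacent, 4.77, 3.03 and 5.46 in floxed tumor, 4.17 and 5.17 in floxed adjacent, and 3.67 and 5.02 in the conflict arrays. KO tumor array 3 fell below KO adjacent array 1, so the groups overlapped, and the difference of 1.28 had an adjusted p of 0.249 on KO arrays alone. Slc26a6, another anion exchanger, and Slc13a1, a sulfate carrier, were higher in each KO tumor array than in either KO adjacent array, by 0.81 and 0.85, and neither passed.

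A pair of ion carriers went the other way in KO arrays. Slc9a3, the sodium and proton exchanger that drives sodium absorption, measured 6.22, 5.99 and 6.65 in KO tumor, 6.43 and 7.49 in KO adjacent, 3.92, 3.06 and 6.97 in floxed tumor, 4.9 and 3.93 in floxed adjacent, and 5.45 and 5.69 in the conflict arrays. KO adjacent array 2 held the highest value of all 12 arrays, and the KO tissue difference of −0.68 had an adjusted p of 0.388 on KO arrays alone. Slc34a2, the sodium-coupled phosphate carrier, measured 3.21, 3.62 and 3.58 in KO tumor, 3.63 and 3.42 in KO adjacent, 4.11, 3.78 and 3.46 in floxed tumor, 4.06 and 3.97 in floxed adjacent, and 3.43 and 3.52 in the conflict arrays. Its highest values were all in weak-signal arrays, the KO tissue difference was −0.05, and it passed in no comparison of the 10-array fit.

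Floxed arrays gave the same comparison of tissues with 3 tumor and 2 adjacent arrays, of which 4 of 5 are of weak signal. Carriers were higher in the tumor arrays for 25 of 34 genes, with a median of 0.51 against −0.01 for all genes. limma called 0 carriers and 0.00502% of all genes. In 6 carriers the floxed groups did not overlap, all higher in tumor (17.6%, against 8.64% of all genes), and in 0 lower (10.1%). Slc2a5 differed by 1.63 with an adjusted p of 0.251, Slc6a19 by 1.46 with 0.296, and Slc5a1 by 1.98 with 0.375. The difference between the tissue effects of the 2 genotypes was tested as an interaction. It passed for 0 carriers and 0% of genes, and the smallest adjusted p of a carrier was 0.772, for Slc5a9 (1.05, with a standard error of 0.45).

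Taking the tissue label over all 12 arrays, which brought in the conflict arrays, 30 of 34 carriers were higher in tumor with a median of 0.55, against 0 for all genes. limma called 0 carriers and 0% of genes. No carrier separated all 6 tumor arrays from all 6 adjacent arrays, as 0.0652% of genes did as higher and 0.13% as lower. Slc5a1 differed by 1.90 with a standard error of 0.55, Slc26a3 by 1.14 with a standard error of 0.33, and Slc1a5 by −0.58 with a standard error of 0.37, each with an adjusted p of 1. Without conflict array 1 the median was 0.51, and 0 carriers and 0% of genes passed. Without the weak-signal arrays the median was 0.83 over 8 arrays, 31 of 34 carriers were higher, and 0 carriers and 0% of genes passed.

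The genotype comparison in tumor epithelium asked whether carriers of the epithelium differed when Ppard was removed by a Cre of fibroblasts. Carriers were higher in KO than in floxed tumor arrays for 31 of 34 genes, with a median of 0.97 against −0.01 for all genes. Amino acid carriers made up most of the larger differences, and 14 of 14 were above 0 with a median of 1.10. One carrier passed, Slc36a1, as higher in KO, against 1.08% of genes in either direction and 0.682% higher. In 7 carriers every KO array lay above every floxed array (20.6%, against 13.2% of all genes), and in 0 all lay below (13.9% of all genes). With the replicate number as a block over all 10 arrays, 4 carriers passed as higher, Slc36a1, Slc3a1, Slc6a20a and Slc39a4, against 3.92% of genes. That block also ties same-numbered adjacent arrays, for which the check of pairing gave no ground. Floxed tumor arrays 1 and 2 are of weak signal, and against the floxed tumor array that remains without them the median fell to 0.20, with 22 carriers above and 12 below 0. That fit assumes that the single floxed tumor array varies like the KO arrays, which alone supply its spread. In it 19.4% of all genes were past the threshold, 9.47% higher and 9.92% lower, and its differences are therefore given below as values, not as calls. On the 6 tumor arrays alone 0 carriers passed, against 0.0401% of genes in either direction and 0.0351% higher. Without floxed tumor array 3, 19 carriers and 29.1% of all genes passed, and leaving out any other tumor array left 0 carriers and 0.0502% to 0.386% of genes. Cell type markers moved with this comparison, and their part in it was not tested. Enterocyte markers were higher in KO for 20 of 23 genes, with a median of 0.86, and goblet cell markers for 7 of 8, with a median of 1.30. Against floxed tumor array 3 alone, 16 of 23 enterocyte markers were lower, with a median of −0.76, and 5 of 8 goblet markers, with a median of −0.34.

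Slc36a1 is a proton-coupled carrier of glycine, proline and other small amino acids, found on the brush border and on lysosomes. Slc36a1 measured 7.42, 7.51 and 6.14 in KO tumor, 6.27 and 5.68 in KO adjacent, 4.15, 5.19 and 5.22 in floxed tumor, 4.59 and 4.52 in floxed adjacent, and 4.75 and 6.77 in the conflict arrays. All 3 KO tumor arrays lay above all 3 floxed tumor arrays, and conflict array 2 lay with the KO arrays while conflict array 1 lay with the floxed ones. Group means were 7.02 ± 0.77 (SD, n = 3) in KO tumor and 4.85 ± 0.61 (SD, n = 3) in floxed tumor. The difference was 2.17 with a standard error of 0.41, a 4.50-fold higher level, and an adjusted p of 0.046. It was 1.80 against floxed tumor array 3 alone, and had an adjusted p of 0.0291 with the replicate block. Over 17 alternatives adjusted p ranged from 0.00399 to 0.22, and it was under the threshold in 8, of which 1 is the fit against floxed tumor array 3 alone. In adjacent epithelium Slc36a1 was higher in KO by 1.42, with an adjusted p of 0.1.

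**Figure D5:**
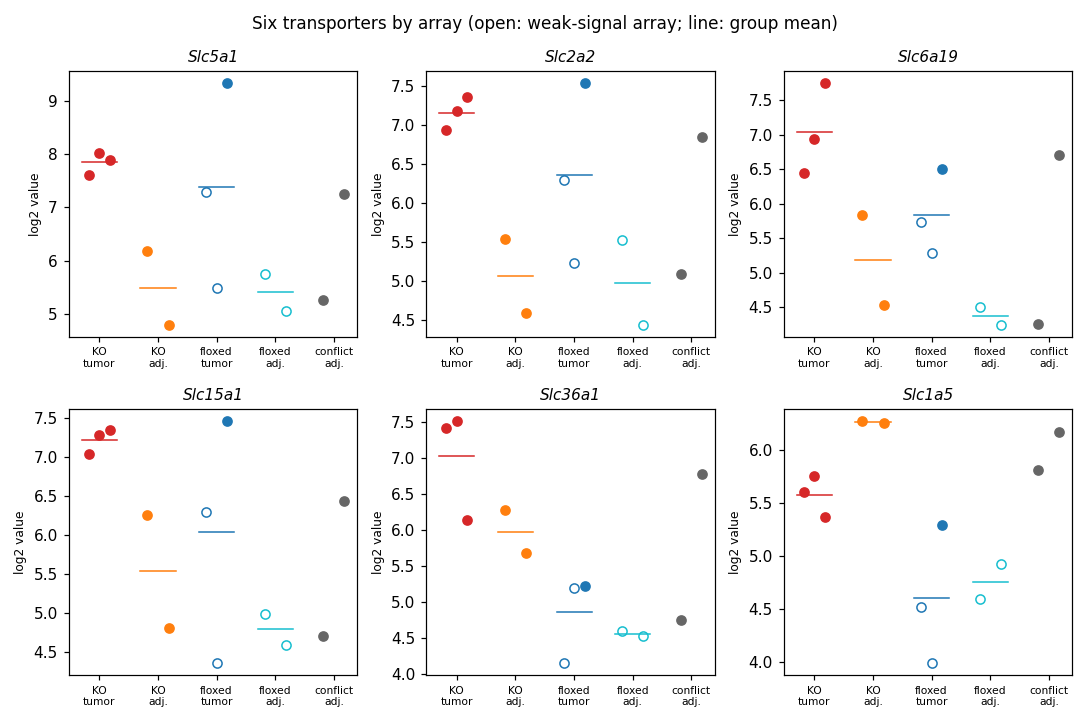
Log2 values (vertical axis) of 6 carriers in each array, by group (horizontal axis). Open circles are weak-signal arrays and lines are group means, drawn for all groups but the conflict arrays. For Slc36a1 the KO tumor arrays at 6.14 to 7.51 lie above the floxed tumor arrays at 4.15 to 5.22, while for Slc5a1 floxed tumor array 3, at 9.35, lies above every KO array.

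Next in size were Slc6a20a and Slc3a1, whose levels by array are given above. Slc6a20a was higher in KO tumor by 2.31 with a standard error of 0.50 and an adjusted p of 0.0575, and passed with the block at 0.0361. Slc3a1 was higher by 1.99 with a standard error of 0.48 and an adjusted p of 0.0696, and passed with the block at 0.02. Slc39a4 was higher by 1.45 with an adjusted p of 0.127, and passed with the block at 0.0418. In all 3 genes the KO tumor arrays lay above the floxed tumor arrays without overlap, although for Slc39a4 the nearest values were 5.68 and 5.56. Over 17 alternatives adjusted p ranged from 0.00163 to 0.24 for Slc6a20a, from 8.9e-04 to 0.25 for Slc3a1 and from 0.0282 to 0.357 for Slc39a4.

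The differences of the 5 sugar carriers in tumor epithelium ran from 0.40 to 0.87 and none passed. For Slc5a1, KO minus floxed was 0.47 with an adjusted p of 0.741. Against floxed tumor array 3 alone it was −1.5. Floxed tumor array 3 held the highest level of Slc5a1, Slc2a2 and Slc2a5 among all 12 arrays. Slc28a2, Slc34a2 and Slc5a8 were the carriers with lower values in KO tumor. Slc28a2 was lower by −1.45 with an adjusted p of 0.197. Slc5a8 measured 4.01, 4.04 and 3.81 in KO tumor, 3.83 and 3.93 in KO adjacent, 4.52, 4.88 and 3.28 in floxed tumor, 4.64 and 4.54 in floxed adjacent, and 3.91 and 3.62 in the conflict arrays. It was lower in KO by −0.27, with an adjusted p of 0.683, and 0.68 against floxed tumor array 3 alone, the lowest of the floxed tumor arrays for this gene. Slc9a3 was higher in KO by 1.63 with an adjusted p of 0.248, and lower by −0.68 against floxed tumor array 3 alone.

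Adjacent epithelium was compared between 2 KO arrays and 2 floxed arrays, and since both floxed arrays are of weak signal, genotype and signal strength cannot be told apart there. Carriers were higher in KO for 25 of 34 genes, with a median of 0.59 against −0.04 for all genes. One carrier passed, Slc1a5, as higher in KO, against 6.06% of genes in either direction, 2.91% higher and 3.15% lower. In 15 carriers both KO arrays lay above both floxed arrays (44.1%, against 32.1% of all genes), and in 2 below (35% of all genes). Slc1a5 was higher by 1.5 with a standard error of 0.39 and an adjusted p of 0.0473. The mean level was 6.26 ± 0.01 (SD, n = 2) for KO, while floxed arrays averaged 4.76 ± 0.23 (SD, n = 2). Over 14 alternatives its adjusted p ranged from 0.00744 to 0.341, and it passed in 4. With the conflict arrays added by their titles, the median of the carriers was −0.07, and with them added by their genotype field it was 0.78. Neither reading left a carrier past the threshold, with 0.00502% of genes past it by title and 0.241% by genotype field. After quantile normalization 21 carriers were above 0 and 13 below, with a median of 0.34.

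Fitted on the 4 adjacent arrays alone, 7 carriers passed as higher in KO, against 17.2% of genes in either direction, 8.92% higher and 8.31% lower. They were Slc1a5, Slc6a6, which carries taurine, Slc7a9, Slc3a1, Slc36a1, Slc39a4 and Slc9a3. Slc6a6 measured 6.09, 6.37 and 6.69 in KO tumor, 6.03 and 5.7 in KO adjacent, 5.07, 4.45 and 6.19 in floxed tumor, 3.98 and 4.2 in floxed adjacent, and 5.66 and 5.89 in the conflict arrays. Both floxed adjacent arrays were lowest, and the difference was 1.77 with an adjusted p of 0.0521 in the 10-array fit. Slc9a3 had the largest difference, 2.55, with a standard error of 0.98 and an adjusted p of 0.122 in the 10-array fit. Over 14 alternatives adjusted p ranged from 0.00852 to 0.341 for Slc6a6 and from 0.0206 to 0.441 for Slc9a3. Markers of several cell types moved with this comparison too, and their part in the result was not tested. Goblet cell markers were higher in KO adjacent arrays for 7 of 8 genes, with a median of 1.85, enterocyte markers for 20 of 23, with a median of 1.15, and crypt and Wnt genes for 15 of 17, with a median of 0.98.

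Lists of other Slc carriers and of proteins that work with carriers were also counted. Of 56 further Slc carriers, 38 were higher in KO tumor than KO adjacent arrays, with a median of 0.18, and 1 passed on KO arrays alone, Slc27a4, a fatty acid carrier, by 0.98 with an adjusted p of 0.0244. Of all genes, 1.85% passed in that fit, 0.557% as higher and 1.29% as lower. Of 21 partners, 17 were higher with a median of 0.53, and 3 passed. They were Khk, given above, Myo1a, a brush-border myosin, by 1.22 with an adjusted p of 0.0251, and Slc9a3r1, a scaffold of Slc9a3, by 1.19 with an adjusted p of 0.0486. In KO against floxed tumor 1 of the 56 carriers passed, Slc9a2, a sodium and proton exchanger, by 1.78 with an adjusted p of 0.0479, and 0 of 21 partners. The share of all genes that passed there was 1.08%.

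In adjacent epithelium, 3 of the 56 further carriers passed between genotypes, against 6.06% of all genes, 2.91% higher and 3.15% lower. Slc2a1, a glucose carrier of dividing cells, was higher in KO by 1.85, with an adjusted p of 0.0312. Slc4a2, an anion exchanger, was higher by 1.20, with an adjusted p of 0.0306, and Slc16a7, a monocarboxylate carrier, was lower by −1.25, with an adjusted p of 0.0497. Of the partners 2 passed as higher in KO, Cftr, the chloride channel, by 1.94 with an adjusted p of 0.0192, and Bsg, a chaperone of monocarboxylate carriers, by 1.95 with an adjusted p of 0.0422. For these genes too, genotype cannot be told apart from the weak signal of both floxed adjacent arrays.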

How the data were processed

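RNA of the dissected epithelium was prepared with a GeneChip WT Pico kit and a biotin label, per the labels' protocols. The authors deposited 1 table of log2 values for 35556 probe sets on 12 arrays, and the submitters' processing notes name Partek and RMA without versions. Background correction, filters and genome build are not given in the sources used here. Of the probe sets, 21789 carried 1 gene symbol in the platform annotation, 1621 several and 12146 none. The highest-mean probe set stood for each of 19938 genes, and 999 genes had more than 1. Few arrays per group and the weak-signal arrays both limit precision.

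Log2 values were fitted with limma 3.58.1 in R 4.3.3 (lmFit, eBayes, two-sided), with 10 arrays in 4 groups sharing a spread per gene, or 12 arrays by tissue. Adjusted p is Benjamini-Hochberg over 19938 genes, and below 0.05 passes. Fits on only the arrays compared, and without arrays of median correlation under 0.7, stand beside these. The carriers and gene lists were chosen with earlier results of these data known. Values are given in every array for carriers that passed, the 8 largest KO tissue differences, a list of main uptake carriers, and those against their group. Of other carriers and partners, those that passed are named. Promoter windows are RefSeq's. Figures used matplotlib 3.10.9.

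Same-numbered KO and floxed tumor arrays deviated together at correlations of 0.105, 0.121 and 0.347 across genes, each above 0.1, so the title numbers were used as a block there. KO tumor array 1 and floxed tumor array 2, of different number, had 0.246, so the pairing rests on weak correlations. Alternatives were other scaling, a filter on the dimmest 30% of genes, averaged probe sets, variance options, array weights, both readings of the conflicting labels, and each array left out. The fitting code was first tested on simulated data.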

Additional observations from a re-analysis of the deposited data

Results flagged for a closer look

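Each carrier was examined for an array that lies far from the rest in the 6 arrays labelled tumor and in the 6 labelled adjacent, 68 groups in all, by the gap to the nearest array relative to the whole range. Chance alone singles out about 1 in 20 groups. Here 2 were singled out. Slc15a1, the peptide carrier, stood at 4.36 in floxed tumor array 2, a weak-signal array, with the next lowest of the tumor arrays at 6.30. Slc5a9, the mannose carrier, stood at 3.86 in conflict array 1, with the next lowest of the adjacent arrays at 4.73.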

How the results depend on the processing

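In tumor epithelium between genotypes 1 carrier passed. The count was 0 after quantile normalization (0.0401% of all genes) and with a trended and robust variance (0.306%). It was also 0 on only the arrays compared (0.0401%) and with conflicting labels read by title (0%). It was 10 with array weights (14.6%) and 4 with the replicate block (3.92%). Leaving out 1 array gave 0 to 19 (0.0502% to 29.1%). The median difference of 0.97 was 0.20 without weak-signal arrays. Slc5a1 turned to −1.5 and Slc9a3 to −0.68 without weak-signal arrays, and Slc5a8 to 0.68; without floxed tumor array 2, Slc5a1 turned to −0.48 and Slc5a8 to 0.06, and with 1 array left out they ran from −0.48 to 1.45 and from −0.74 to 0.06. The cause was not tested.

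In adjacent epithelium 1 carrier passed. The count was 0 after quantile normalization (1.05% of all genes), with array medians subtracted (6.77%) and without the dimmest 30% of genes (3.25%). It was also 0 with a trended and robust variance (4.27%), and with conflicting labels read by title (0.00502%) or by genotype field (0.241%). There were 5 with array weights (20.2% of all genes), 7 on only the arrays compared (17.2%) and 6 with the replicate block (12.3%). Leaving out 1 array leaves a group of 1 array, so no count is given for it. The median of 0.59 was −0.07 with labels read by title.

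Between KO tissues, where 0 passed, 18 did with array weights (5.23% of all genes) and 4 (1.85%) on only the arrays compared, as without weak-signal arrays. Slc11a2 turned to −0.36 with the replicate block and to −0.12 without KO tumor array 3, the lower end of a range to 1.99 with 1 array left out. On KO arrays alone, with alternatives chosen after seeing the data, 8 passed with array weights (3.08%) and 18 with the replicate block (4.59%) in place of 4, and 0 to 9 with 1 array left out (0.0502% to 3.17%). Over 12 arrays 6 passed with array weights (0.637%) in place of 0. Numbers pair no other groups by the check used, and there the block is given only here. Other scaling moved the median of all genes by under 0.1, but that of the carriers more: quantile normalization took it from 0.59 to 0.34 in adjacent epithelium between genotypes (21 above and 13 below 0 in place of 25 and 9, and 22 and 12 with medians subtracted), from 0.97 to 0.69 in tumor epithelium, and from 0.51 to 0.38 between floxed tissues (21 and 13 in place of 25 and 9). Weak signal in 4 of 5 undisputed floxed arrays limits every comparison with floxed tissue.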
